A study of Mus musculus with 21 samples.

Results

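The levels of 10 antioxidant enzyme mRNAs were measured in whole brains of SAMP8 mice that had received the peptide HsTX1[R14A] or its vehicle. The members are the superoxide dismutases Sod1 and Sod2, the catalase Cat, the glutathione peroxidases Gpx1 and Gpx4, and the peroxiredoxins Prdx1, Prdx2, Prdx3, Prdx5 and Prdx6. They were chosen by symbol, and all 10 were found among the 16318 genes of the deposited table and passed the filter on low counts, which left 16303 genes. SAMP8 is a senescence-accelerated mouse strain that shows early memory loss, and HsTX1[R14A] is a scorpion toxin analog that blocks the potassium channel Kv1.3. The sample titles spell it HxTX1[R14A]. Dosing lasted 8 weeks, with subcutaneous injections on alternate days. Treated were 9 mice, 3 females and 6 males, at 1 mg/kg, and 12 mice, 6 of each sex, received phosphate-buffered saline (PBS). All mice were SAMP8, were 6 months old when dosing ended, and gave 1 library each. No mouse of another strain enters these comparisons, so they say nothing of how SAMP8 differs from a strain that ages normally.

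Cells form superoxide as a by-product of respiration and of oxidase enzymes, and superoxide dismutases turn it into hydrogen peroxide. Catalase, glutathione peroxidases and peroxiredoxins then break down hydrogen peroxide, and Gpx4 also reduces lipid peroxides in membranes. Glutathione peroxidases draw electrons from glutathione, most peroxiredoxins draw them from thioredoxin, and Gpx1 and Gpx4 carry selenium as selenocysteine. Brain tissue uses much oxygen and is rich in oxidizable lipids, and oxidative damage is a known feature of the aging brain. Many genes of glutathione and thioredoxin metabolism carry antioxidant response elements, to which Nrf2 binds together with a small Maf protein.

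The element was searched for in the promoters as its letters TGACNNNGC, on both strands, in windows from 250 bases before to 50 bases after each RefSeq transcript start (GRCm38.p6). It was present in 12.4% of all 32851 windows. Of the 9 members with a window, which have 12 windows between them, 2 held it. The stretches before the annotated gene starts of those 2 genes are shown because Sod1 and Prdx1 belong to different classes of enzyme and hold the same fixed letters. Their free letters (N) differ. Capitals mark the match, which reads GCNNNGTCA on the strand shown, and both genes lie on the plus strand.
Sod1, chr16:90220512-90220753: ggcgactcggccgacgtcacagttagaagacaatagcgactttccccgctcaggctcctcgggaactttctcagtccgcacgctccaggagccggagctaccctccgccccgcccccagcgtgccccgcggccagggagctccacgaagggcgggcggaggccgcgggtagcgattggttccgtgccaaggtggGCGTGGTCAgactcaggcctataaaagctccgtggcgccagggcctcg
Prdx1, chr4:116685349-116685543: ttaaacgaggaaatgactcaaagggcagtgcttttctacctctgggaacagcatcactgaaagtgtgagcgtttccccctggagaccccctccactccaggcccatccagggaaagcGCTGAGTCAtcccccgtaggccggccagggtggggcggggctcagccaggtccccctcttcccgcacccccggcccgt
The match begins 48 bases before the annotated gene start of Sod1 (GENCODE), where the printed stretch ends, and 78 bases before that of Prdx1. Counted from the RefSeq transcript starts, which lie further downstream, it begins 56 and 133 bases before. No window of Sod2, Cat, Gpx1, Gpx4, Prdx2, Prdx3 or Prdx5 held these letters, and Prdx6 had no window. A match is a description of the letters and not a measured binding site.

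Levels are given as CPM, the counts of a gene scaled to a common library size with TMM factors, a scaling that corrects for differences in library composition. Library totals ran from 14917174 to 47613792 counts, and the members had between 563 (Cat) and 19254 (Gpx4) counts in a mouse, so their spread was that between mice more than that of counting. No marker of neurons, astrocytes, oligodendrocytes or microglia was at 0 in any mouse, which cannot tell whole brain from a part of it. In bulk tissue such as this, fewer cells of a type and less RNA per cell cannot be told apart. Libraries also differed in how the level of a gene depended on its length. This was measured for each library as the length slope, the change in log2 CPM relative to the mean of all mice per doubling of transcript length. The length used was that of the longest annotated transcript. The slope ran from -0.384 to 0.147 in PBS-treated mice (median -0.0229) and from -0.142 to 0.234 in HsTX1[R14A]-treated mice (median 0.15). PBS mice 103 and 90 stood lowest, at -0.384 and -0.337. Column names of the deposited table also take 2 forms, one shared by 15 mice (10 PBS and 5 HsTX1[R14A]) and the other by 6 (2 and 4), and what they record is not stated.

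To ask which enzymes were most abundant, levels were divided by the length of the longest annotated transcript and compared within each mouse. Gpx4 was highest in all 21 mice, with a median of 323 CPM per kilobase (173 to 759), followed by Prdx2 with 116 (84.0 to 179). Cat was lowest with 15.7 CPM per kilobase (13.1 to 20.3), below Sod2 with 24.5 (20.1 to 28.1). Between these came Prdx5 with 91.9, Prdx6 with 74.5, Gpx1 with 69.4, Prdx1 with 57.4, Sod1 with 45.6 and Prdx3 with 36.0 CPM per kilobase. Of the 9 neighbouring pairs, 8 differed within mice (two-sided permutation test of paired differences, 100000 sign flips, adjusted p = 1.12e-05). Each of the 8 had an unadjusted permutation p of 1e-05, the smallest that this number of flips can give. The pairs were set by the order of the medians in these same mice. Prdx6 and Gpx1 did not differ beyond their spread: Prdx6 was higher in 13 of 21 mice by 0.06 ± 0.23 on the log2 scale (SD, n = 21, adjusted p = 0.243). The order depends on the length used, apart from Gpx4, at place 1, and Prdx3, at place 8, which kept their places with each of the 3 lengths tried. With the summed length of all exons, Prdx5 (78.4 CPM per kilobase) was second, above Prdx2 (61.5) in 21 of 21 mice, and Sod2 (14.4) was lowest, below Cat (15.7, permutation adjusted p = 0.0122). Sod1 moved most. Its longest transcript has 3970 bases and 3 exons, whereas its APPRIS principal transcript has 641 bases, and with principal transcripts Sod1 was second with 283 CPM per kilobase (198 to 560), after Gpx4 with 335, and Prdx2 was at place 4.

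With sex as the only covariate, 4 of the 10 enzymes were called lower in HsTX1[R14A]-treated brains and none higher. These were Gpx4, Gpx1, Prdx1 and Prdx6, which reduce lipid peroxides or hydrogen peroxide. All 10 members had a negative log2 fold change, with a median of -0.29, whereas the median over all 16303 genes tested was -0.01 and 51.4% of genes were negative. The test (edgeR quasi-likelihood, with sex in the model and Benjamini-Hochberg adjustment over all genes) called 31.6% of all genes in either direction, 16.1% lower and 15.5% higher. A further 3 members had an unadjusted p below 0.05, making 7 in all. Of the 16303 genes tested, 7562 had an unadjusted p below 0.05. By principal transcript length, 6 members lie in the shortest of 4 classes, where the median was -0.25 and 32.6% were called lower. The next class holds 3 members, with a median of -0.04 and 16.4% called lower. With the length slope as covariate no member passed. The treated and PBS-treated mice overlapped for every member.

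**Figure D1:**
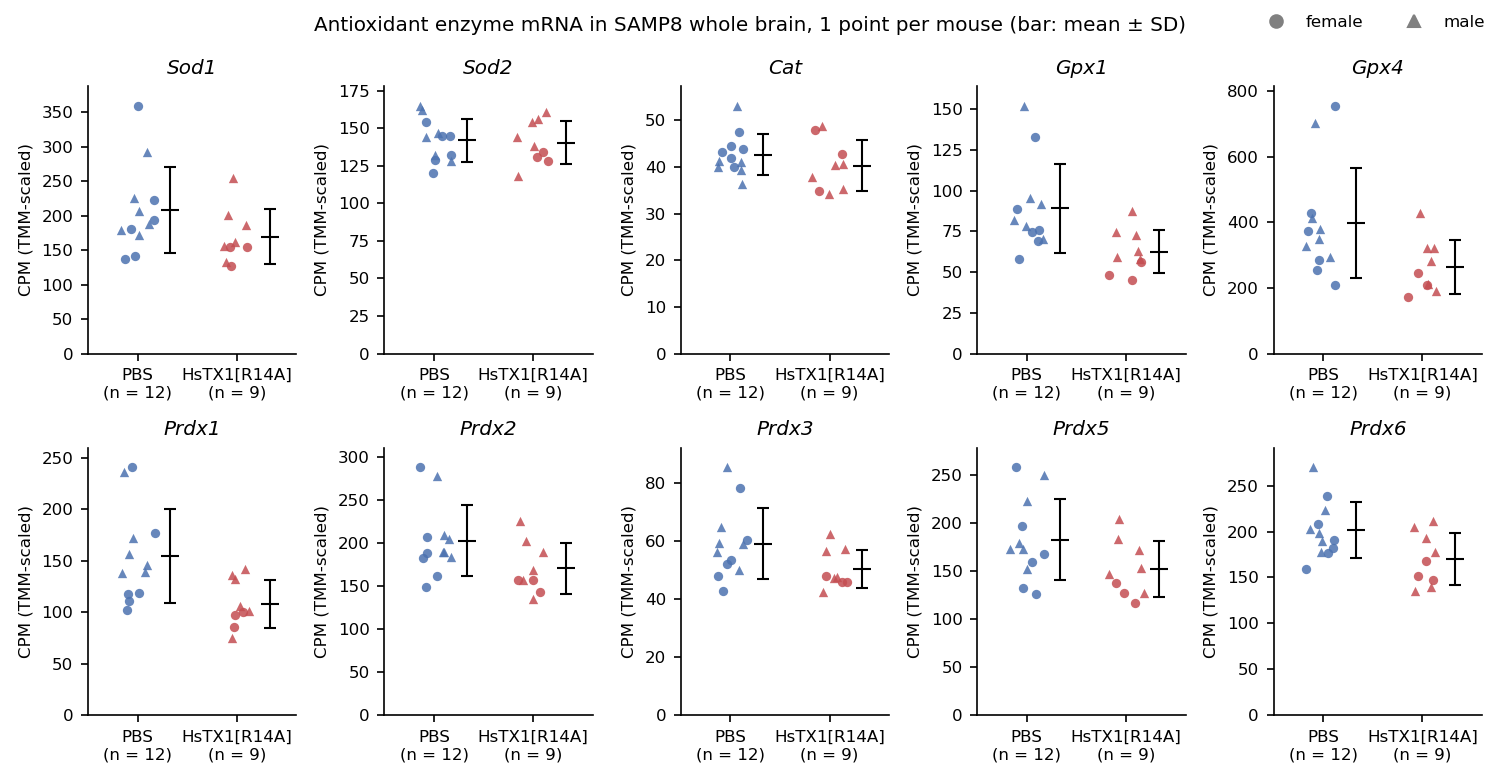
TMM-scaled CPM (y axis, from 0) of each enzyme in 12 PBS-treated (blue) and 9 HsTX1[R14A]-treated (red) SAMP8 mice, with circles for females and triangles for males; black bars give the mean ± SD. Gpx4 ran from 209 to 756 CPM in PBS-treated and from 172 to 430 in treated mice, and the groups overlapped for all 10 enzymes.

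Sod1, the cytosolic copper and zinc dismutase, ran from 137 to 359 CPM in PBS-treated mice (median 191) and from 127 to 254 in treated mice (median 156). PBS mouse 103 was highest and treated mouse 98 lowest, and 7 of 9 treated mice lay below the PBS median. The log2 fold change was -0.33 ± 0.16 (SE, edgeR adjusted p = 0.112), which did not pass the threshold. Sod2, the manganese dismutase of mitochondria, was nearly level, with a PBS median of 144 CPM (120 to 165) and a treated median of 138 (118 to 161). Its log2 fold change was -0.03 ± 0.07, with a 95% confidence interval from -0.17 to 0.10 (edgeR adjusted p = 0.695).

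Cat, the catalase of peroxisomes, was the other member with little difference. It ran from 36.3 to 53.1 CPM in PBS-treated mice (median 41.6) and from 34.3 to 48.7 in treated mice (median 40.4). Its log2 fold change was -0.07 ± 0.08 (95% confidence interval -0.23 to 0.09, edgeR adjusted p = 0.468). Sod2 and Cat were also the members that varied least between PBS-treated mice, with coefficients of variation of 9.87% and 10.2%.

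Gpx4, the peroxidase that protects membranes from lipid peroxidation, had the largest difference among the members. Its level ran from 209 to 756 CPM in PBS-treated mice (median 362) and from 172 to 430 in treated mice (median 245). PBS mice 103 and 90, at 756 and 704 CPM, stood above all others, and 8 of 9 treated mice lay below the PBS median. The log2 fold change was -0.64 ± 0.22 (SE, edgeR adjusted p = 0.0327), a fitted level 36.0% lower. Gpx4 was also the most variable member, with a coefficient of variation of 42.2% in PBS-treated mice. Gpx1, the cytosolic glutathione peroxidase, ran from 58.2 to 152 CPM in PBS-treated mice (median 79.9) and from 45.1 to 87.3 in treated mice (median 59.3). Here 4 treated mice lay below every PBS-treated mouse, and 5 PBS-treated mice lay above every treated mouse. The log2 fold change of Gpx1 was -0.57 ± 0.15 (edgeR adjusted p = 0.0174), a fitted level 32.7% lower.

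Among the peroxiredoxins, Prdx1, an abundant cytosolic thioredoxin-dependent peroxidase, had the largest difference. It ran from 102 to 241 CPM in PBS-treated mice (median 143) and from 75.2 to 142 in treated mice (median 101). All 9 treated mice lay below the PBS median, and 5 lay below every PBS-treated mouse. Its log2 fold change was -0.55 ± 0.15 (edgeR adjusted p = 0.0194), a fitted level 31.9% lower. Prdx6, which reduces phospholipid hydroperoxides and also has phospholipase activity, ran from 159 to 270 CPM in PBS-treated mice (median 194) and from 135 to 211 in treated mice (median 168). Its log2 fold change was -0.27 ± 0.10 (edgeR adjusted p = 0.0388), a fitted level 17.2% lower.

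The other 3 peroxiredoxins did not pass the threshold, with unadjusted p-values below 0.05. Prdx2, which is abundant in neurons, had a PBS median of 189 CPM (149 to 288), a treated median of 157 (135 to 226) and a log2 fold change of -0.28 ± 0.11 (edgeR adjusted p = 0.067). Prdx3, the peroxiredoxin of mitochondria, had medians of 57.6 CPM (42.8 to 85.4) and 47.7 (42.4 to 62.5), a log2 difference of -0.26 ± 0.11 (edgeR adjusted p = 0.0636). Prdx5, found in mitochondria, peroxisomes and cytosol, had medians of 173 CPM (126 to 258) and 147 (117 to 204), a log2 difference of -0.31 ± 0.13 (edgeR adjusted p = 0.0616). In these 3 genes, 7 or 8 of the 9 treated mice lay below the PBS median. Prdx2 shares exon sequence with Junb and Rnaseh2a (173 and 177 bases) and Prdx5 with Trmt112 (409 bases), all on the opposite strand, so some of their reads may belong to the neighbour unless counting used strand, which is not stated.

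The levels of the enzymes varied together from mouse to mouse. PBS mouse 103 was highest of all 21 mice for 5 members and PBS mouse 90 for 4, whereas treated mouse 81 was lowest for 5 and treated mouse 98 for 3. The level of 9 members followed the length slope of the library within each group, with lower levels at higher slopes, and Cat was the exception. In PBS-treated mice (n = 12), Pearson's r of log2 CPM with the slope was -0.982 for Gpx4 (Spearman's rho -0.986), with adjusted p = 2.86e-05 for r (permutation test, 100000 resamples, two-sided). It was -0.917 for Gpx1 (rho -0.874, permutation adjusted p = 0.00022) and -0.965 for Prdx1 (rho -0.958, permutation adjusted p = 2.86e-05). For Prdx6 it was -0.873 (rho -0.888, permutation adjusted p = 0.000586).

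Without PBS mice 103 and 90, the 2 farthest from the median slope, r remained negative, at -0.945 for Gpx4, -0.762 for Gpx1, -0.906 for Prdx1 and -0.712 for Prdx6. Across the other members r in PBS-treated mice ran from -0.975 (Prdx2) to -0.728 (Sod2), and Cat had r = 0.388 (rho 0.448, permutation adjusted p = 0.212). In the 9 treated mice r was -0.975 for Gpx4 (rho -0.983, exact permutation adjusted p = 4.82e-05) and 0.51 for Cat (rho 0.483, exact permutation adjusted p = 0.167). The adjustment covers 20 tests. A level and a slope come from the same library, and the members are among the genes that set the slope.

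**Figure D2:**
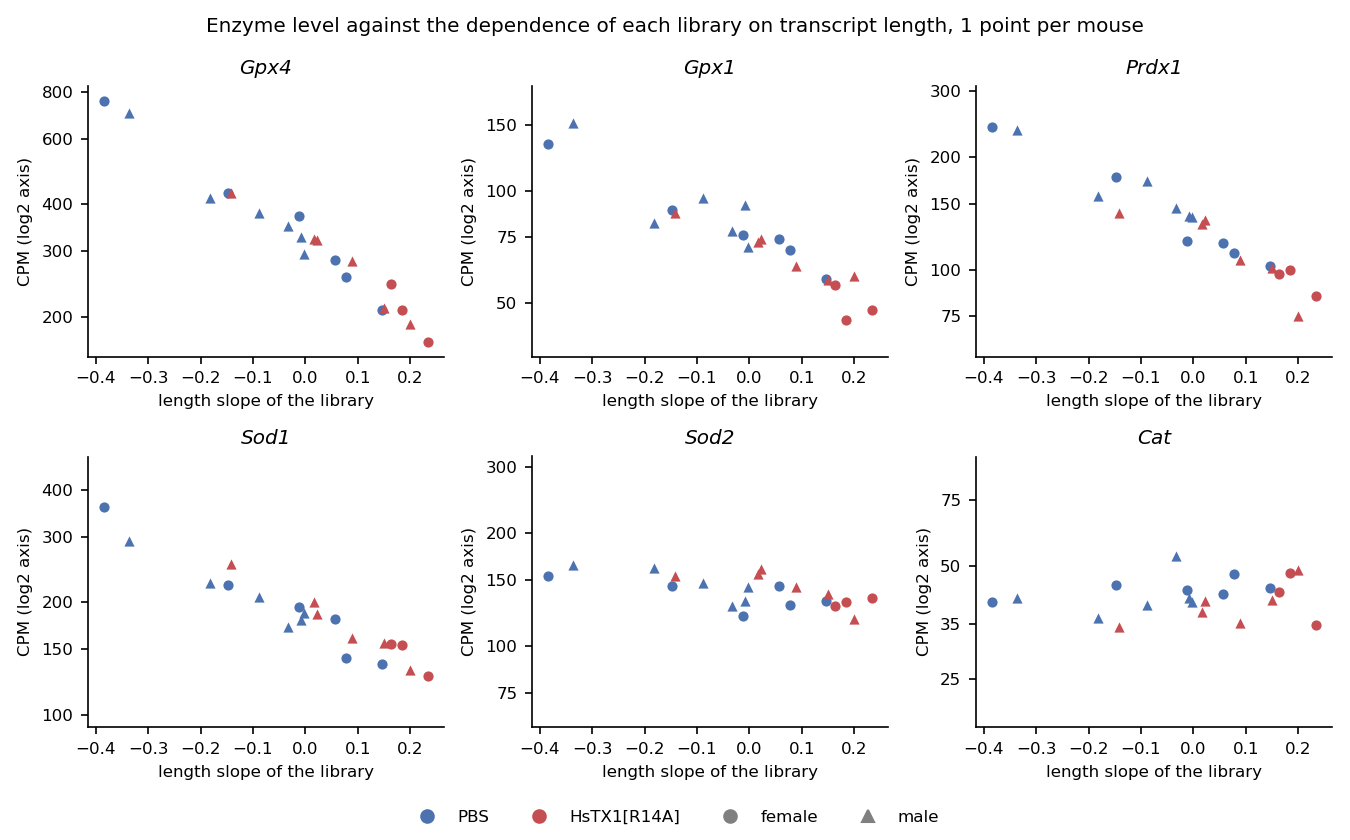
CPM (y axis, log2 scale) of 6 enzymes against the length slope of each library (x axis, log2 CPM per doubling of transcript length), with 1 point per mouse (blue PBS, red HsTX1[R14A]; circles females, triangles males). Gpx4, Gpx1, Prdx1 and Sod1 declined along the slope in both groups (r = -0.982 for Gpx4 in PBS-treated mice), and Cat did not (r = 0.388).

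The slope also moved with the treatment, so each fold change was set beside the length of the transcript and beside fits that hold the slope. When all genes were split into 4 classes of nearly equal size by the length of the principal transcript, the median log2 fold change was -0.25, -0.04, 0.08 and 0.23 from the shortest to the longest class. Called lower were 32.6% of the shortest class and 4.39% of the longest. The shortest class (up to 1976 bases) holds Sod1, Gpx1, Gpx4, Prdx2, Prdx3 and Prdx5, the next (up to 3069 bases) holds Cat, Prdx1 and Prdx6, and the longest holds Sod2, whose principal transcript has 5861 bases. The slope and the length and GC trend rest on the longest transcript instead. For Sod1 that has 3970 bases, where the principal transcript has 641, so its class and its fits use unlike lengths. With the length slope as a covariate, no member and none of the 16303 genes passed the edgeR threshold (0% called, 1 member and 1865 genes at an unadjusted p below 0.05). The log2 fold change was then 0.07 ± 0.06 for Gpx4, -0.12 ± 0.08 for Gpx1, -0.07 ± 0.07 for Prdx1 and -0.03 ± 0.07 for Prdx6. For Sod1 it was 0.18 ± 0.05, the member with an unadjusted p below 0.05. Removing from each library its smooth trend on transcript length and GC content left Gpx1 (-0.35 ± 0.10, adjusted p = 0.0235) and Prdx1 (-0.29 ± 0.10, adjusted p = 0.0499) past the edgeR threshold, beside 15.3% of all genes. With 1 surrogate variable Gpx1 (-0.27 ± 0.07) and Prdx1 (-0.22 ± 0.06) were again the 2 members called, beside 6.77% of all genes. The origin of the slope was not tested.

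**Figure D3:**
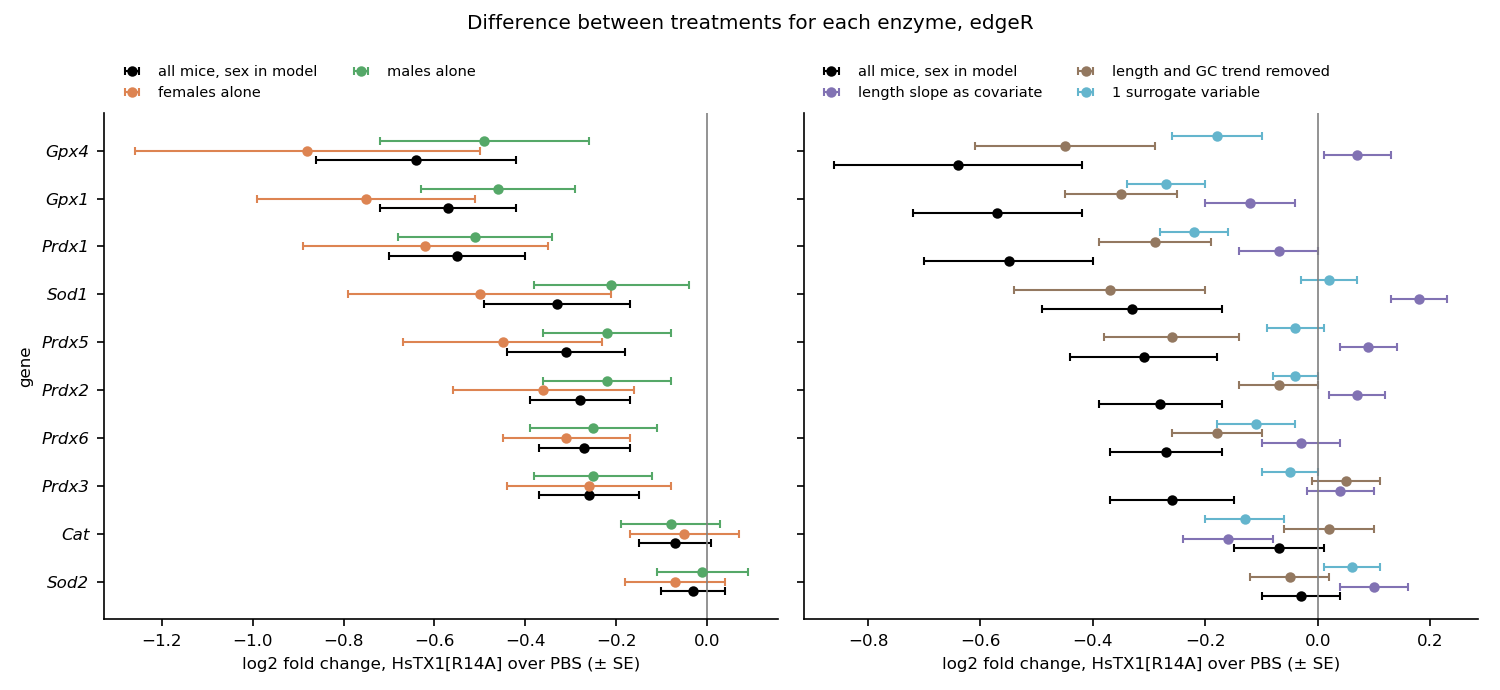
Treatment difference (x axis, log2 of treated over PBS-treated, points ± SE, edgeR) for each enzyme (y axis), in all mice and each sex on the left, and with the length slope, the length and GC trend or 1 surrogate variable taken into account on the right. With the slope as covariate Gpx4 moved from -0.64 to 0.07 and Gpx1 from -0.57 to -0.12, and neither passed the threshold.

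The calls of Gpx4 and Prdx6 were lost when some single libraries were left out, and those of Gpx1 and Prdx1 held whichever mouse was left out. Without PBS mouse 90, 2 members passed (14% of all genes), and the same number passed without treated mouse 98, 71, 72, 88 or 81, where 18.4%, 20.4%, 21.5%, 19.1% and 20% of all genes passed. The log2 fold change of Gpx4 ran from -0.74 to -0.52 over these fits and that of Gpx1 from -0.62 to -0.47. Without treated mouse 93, whose length slope of -0.142 was the lowest of its group, 8 members passed (40.6% of all genes). Leaving out the 5 libraries of lowest slope (PBS 103, 90, 101 and 73 and treated mouse 93), an alternative chosen after the data had been seen, gave log2 fold changes of -0.38 for Gpx4, -0.41 for Gpx1 and -0.36 for Prdx1, all past the threshold (adjusted p = 0.0459, 0.00663 and 0.0213, edgeR), and -0.19 for Prdx6 (adjusted p = 0.143). In that fit 21.4% of all genes were called. Among the 15 mice with the more common name form the log2 fold change was -0.64 for Gpx4, -0.62 for Gpx1, -0.57 for Prdx1 and -0.33 for Prdx6. Among the remaining 6 mice it was -0.34, -0.28, -0.35 and -0.08. No member passed in either subset, where 0% of all genes were called (4 members and 0 at an unadjusted p below 0.05).

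To see whether the sexes responded alike, the treatments were also compared within sex. In females, treated mice had Gpx1 levels of 48.0, 45.1 and 56.0 CPM, all below the 6 PBS-treated females (58.2 to 133). Their Prdx1 levels of 85.2, 100 and 97.5 CPM also lay below all PBS-treated females (102 to 241). These were the 2 members without overlap in females, where 7.44% of all genes lay wholly lower in the treated mice. In males no member was free of overlap, as for all but 0.65% of genes in that direction. The log2 fold change of Gpx4 was -0.88 ± 0.38 in females and -0.49 ± 0.23 in males, and that of Prdx1 was -0.62 ± 0.27 and -0.51 ± 0.17. The female log2 fold change of Gpx1 was -0.75 ± 0.24 and the male one -0.46 ± 0.17. No member passed the threshold within either sex, nor did any other gene (3 members in females and 2 in males at an unadjusted p below 0.05).

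The difference between the sexes in their response was tested as an interaction. No member passed (0 at an unadjusted p below 0.05 in edgeR), nor did any gene of the table (0% called, 270 genes at an unadjusted p below 0.05). For Gpx4 the interaction was 0.39 ± 0.44 on the log2 scale, with a 95% confidence interval from -0.52 to 1.30, which includes large differences in either direction. Between males and females themselves, 9 of 10 members had higher fitted levels in males, as had 48.5% of all genes, and none passed the threshold (0 at an unadjusted p below 0.05; edgeR called 0.0552% of all genes). Without PBS mouse 103, a female, 9 members and 5315 of all genes had an unadjusted p below 0.05, and again no member passed after adjustment. In the fit of all 21 mice, Gpx1 had the smallest unadjusted p, with a log2 difference of 0.30 ± 0.15 (edgeR adjusted p = 0.446). DESeq2 and limma/voom likewise called no member for sex (1 each at an unadjusted p below 0.05) or for the interaction (0 each).

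The wider redox system was examined through 9 lists that hold 134 other genes, of which 124 were tested. Of these, 34 were lower in treated brains and 9 higher, with a median log2 fold change of -0.18, where 16.1% of all genes tested were called lower and 15.5% higher. The lists of glutathione synthesis, of methionine sulfoxide reductases and of superoxide sources had 2 of 14, 1 of 9 and 2 of 13 genes lower, near the share over all genes. The glutathione S-transferases, which couple glutathione to reactive compounds, had 6 of 16 genes lower, none higher and the lowest median of the lists (-0.37). Their leading gene Gstk1, a mitochondrial and peroxisomal transferase, had medians of 8.78 CPM in PBS-treated and 6.52 in treated mice, a log2 fold change of -0.47 ± 0.10 (edgeR adjusted p = 0.0151). Gstk1 has a principal transcript of 930 bases and so belongs to the shortest length class. Of that class 32.6% were called lower and 1.97% higher, with a median of -0.25. The selenoproteins and their synthesis factors, the group to which Gpx1 and Gpx4 belong by chemistry, had 8 of 20 genes lower and 4 higher. Pstk, the kinase that acts on the transfer RNA charged with serine on the way to selenocysteine, went from 13.4 to 9.44 CPM (medians), a log2 fold change of -0.56 ± 0.13 (adjusted p = 0.0152). Selenoi, listed under its older symbol Ept1 and an enzyme of phospholipid synthesis, was higher, with medians of 41.7 and 51.6 CPM (0.34 ± 0.08, adjusted p = 0.0163).

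Among regulators and targets of Nrf2, 5 of 19 genes were lower and 3 higher. All genes tested had 16.1% called lower and 15.5% higher, so the count of higher genes is near that share. Fth1, the heavy chain of the iron store ferritin, fell from 2390 to 1570 CPM (medians), a log2 fold change of -0.71 ± 0.16 (adjusted p = 0.0151). Bach2, a repressor that competes for the same element, rose from 7.25 to 11.2 CPM (0.57 ± 0.16, adjusted p = 0.0204). The thioredoxin and glutaredoxin system, which feeds electrons to the peroxiredoxins, had 4 of 14 genes lower and none higher. Its leading gene Txndc17, a thioredoxin-related protein, had a log2 fold change of -0.64 ± 0.18 (adjusted p = 0.0194), and the thioredoxin reductase Txnrd1 had 0.09 ± 0.04 (adjusted p = 0.101). Glutathione synthesis and recycling had 2 of 14 genes lower and none higher, led by Chac2, which degrades glutathione (-0.70 ± 0.16, adjusted p = 0.0152). Oplah, an enzyme of 5-oxoproline breakdown, had 0.30 ± 0.14 (adjusted p = 0.0942).

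Of the remaining lists, NADPH supply had 4 of 13 genes lower and none higher, with Idh2, the mitochondrial isocitrate dehydrogenase, at -0.27 ± 0.06 (adjusted p = 0.0151) and Pgd of the pentose phosphate pathway at 0.17 ± 0.08 (adjusted p = 0.0939). Methionine sulfoxide reductases and protein repair had 1 of 9 lower, Msra (-0.34 ± 0.12, adjusted p = 0.0336), and 2 higher, led by the sestrin Sesn3 (0.52 ± 0.11, adjusted p = 0.0151). The shares over all genes tested were 16.1% lower and 15.5% higher. Sources of superoxide and peroxide had 2 of 13 lower, led by Cyba, a subunit of the NADPH oxidase of phagocytes (-0.52 ± 0.13, adjusted p = 0.0171), and none higher. Of the other members of the same enzyme families, 2 of 6 tested were lower, led by Gpx7 of the endoplasmic reticulum (-0.42 ± 0.14, adjusted p = 0.0325). The extracellular dismutase Sod3 had 0.47 ± 0.21 (adjusted p = 0.0888). Transcript length went along with direction here too: the principal transcripts of Bach2, Selenoi and Sesn3 have 8882, 6803 and 9125 bases, and those of Fth1, Pstk and Gstk1 have 1494, 1135 and 930. With the length slope as covariate, no gene of the 9 lists passed (14 at an unadjusted p below 0.05).

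**Figure D4:**
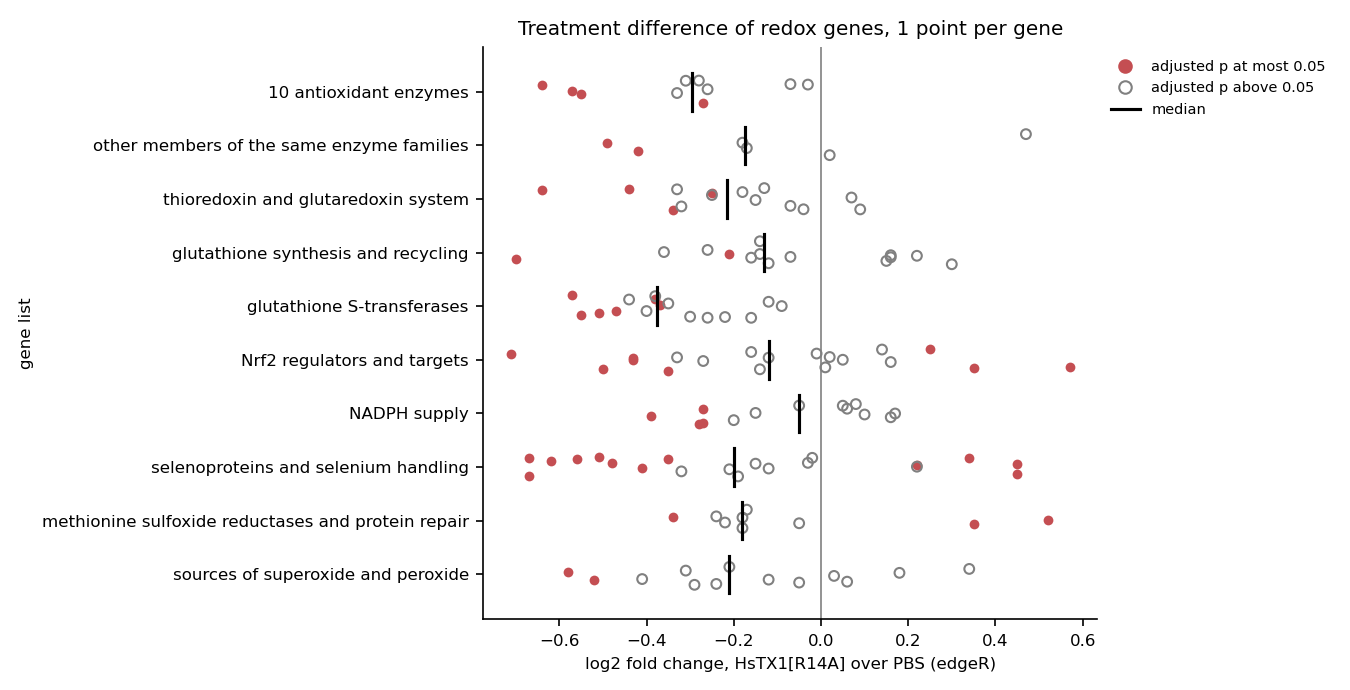
Treatment difference (x axis, log2 of treated over PBS-treated, edgeR) for the 10 enzymes and 124 other redox genes, by list (y axis), with 1 point per gene, filled red at an adjusted p of at most 0.05 and open grey above it; black bars mark the medians. Medians ran from -0.37 for glutathione S-transferases to -0.05 for NADPH supply, and the 10 enzymes had -0.29.

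Markers of cell types were read beside these values, and their part in the result was not tested. Over all genes tested, 16.1% were called lower and 15.5% higher. Of the microglia markers 3 of 9 were called lower and none higher, and their summed level ran from 413 to 604 CPM in PBS-treated mice (median 474) and from 347 to 523 in treated mice (median 388). Of the oligodendrocyte markers 3 of 7 were lower, with sums of 4380 to 6700 CPM (median 5150) and 3300 to 4890 (median 4400). Of the astrocyte markers 3 of 8 were lower, although their summed medians were 4310 and 4420 CPM. Neuronal markers had 1 of 8 higher (sums 5320 to 7990 and 6280 to 9220 CPM) and endothelial markers 1 of 6 higher (66.9 to 122 and 79.5 to 138 CPM). Both counts are near the share called higher over all genes. Red blood cells carry much catalase, Prdx2 and Gpx1 protein, and 0 of their 5 markers were called, with sums of 5.82 to 157 CPM and 15.1 to 87.6 CPM. One of them, Hba-a2, was at 0 in at least 1 mouse. Choroid plexus markers, with 0 of 6 called, ran from 67.6 to 1120 CPM in PBS-treated and from 57.3 to 828 in treated mice, a wide range in both.

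The genes whose levels followed each enzyme most closely were found among 13292 genes, with levels centred on the mean of each treatment and sex group over the 21 mice. This is a description without a test, since libraries share the length slope. Gpx4 was closest to Rpsa (r = 0.991) and Prdx2 to Rpl15 (r = 0.989), both ribosomal proteins. Sod1 was closest to Pam16 of the mitochondrial import motor (r = 0.987), Prdx5 to the respiratory chain subunit Sdhb (r = 0.984) and Sod2 to the cytochrome oxidase assembly factor Cox11 (r = 0.957). Prdx1 was closest to Fundc1 (r = 0.986), Gpx1 to Pdcd6 (r = 0.961), Prdx3 to Gm10182 (r = 0.957) and Prdx6 to Vhl (r = 0.953). Cat had the weakest closest gene, Ermp1 (r = 0.82), and its r with the other 9 members ran from -0.613 (Sod2) to -0.299 (Gpx1). Among themselves, Sod1 and Prdx5 were closest, with r = 0.971.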

How the data were processed

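Whole-brain RNA libraries of 21 SAMP8 mice (12 PBS, 9 HsTX1[R14A]) were used. The authors used STAR (genome GRCm38) and Salmon within nf-core/rnaseq 3.2. The estimated counts they deposited cover 16318 genes and are not normalized. Whole to within 0.01 were 90.5% of the values, and rounding was applied to all. The labels name a SMARTER mRNA-Seq kit and the study's methods an MGI directional kit. The table's columns of fold change, p-value and FDR, and 53 per-sample columns of CPM or of other libraries, were not used. In 0 rows the gene name was missing.

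The edgeR 4.0.16 quasi-likelihood test (R 4.3.3) was applied to the 16303 genes kept by filterByExpr, with TMM factors, terms for sex and treatment, Benjamini-Hochberg adjustment over all genes and a threshold of 0.05. The SE is the log2 fold change divided by the square root of F. The deposited groups give 1 library per mouse, so p-values measure the spread between libraries. Differences between mice and between library preparations cannot be told apart in that spread. Library totals ran from 14917174 to 47613792 counts. On data simulated from these libraries for HsTX1[R14A] against PBS (16294 genes, 200 changed 2-fold), 177 were recovered with 3 false calls. All members differed by less than 2-fold between the treatments, with Gpx4 largest at -0.64 on the log2 scale. Recovery of such smaller changes was not tested, nor was the number of false calls when libraries differ in length slope.

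Lengths are from GENCODE M21 (GRCm38), found for 16224 of the tested genes, and promoters from RefSeq (GRCm38.p6), found for 9 of 10 members. log2 CPM carries a prior count of 2. Permutation tests used scipy 1.17.1 or numpy with 100000 resamples, or all permutations for 9 mice. Alternatives were limma 3.58.1 with voom, DESeq2 1.42.0, RLE scaling, other filters, covariates (name form, length slope, 1 surrogate variable from sva 3.50.0), a loess trend of span 0.5 removed, subsets, and each mouse left out. The annotated copies Prdx6b, Prdx6-ps2, Prdx2-rs3 and Gpx4-ps2 have no row in the table.

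The members, lists and tests were chosen with earlier results of these data known. All 10 members are named. Of each other list, the gene of smallest p among positive and among negative log2 fold changes is named, and for each member the 1 gene of highest correlation among genes averaging 1 or more in log2 CPM. One gene picked this way is not reported here.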

Additional observations from a re-analysis of the deposited data

How the results depend on the processing

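No analysis paired by mouse was possible because the mouse numbers are unique and no number is shared between the groups. According to the paper, mice were randomized to treatment within cages. The sample labels give no cage, so cage could not enter the model. Main counts of genes called were 4 members, 43 other redox genes and 5144 of all genes. They came to 2 members and 2984 genes without the sex term; 2, 17 and 1999 with name form as covariate; 2, 11 and 1104 with 1 surrogate variable; 0, 0 and 0 with the length slope as covariate; 2, 17 and 2499 with the length and GC trend removed; and 0, 0 and 0 in the 15 mice of one name form, the 6 of the other, males alone and females alone, where fewer mice were tested. Among all genes, 5797, 532, 4440 and 3312 had an unadjusted p below 0.05 in those 4 subsets. Without the 5 libraries of lowest length slope, 26 other redox genes were called. Leaving out each mouse gave 2 to 8 members, 21 to 58 other redox genes and 2289 to 6614 of all genes, lowest without PBS mouse 90 and highest without treated mouse 93.

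Signs turned for Sod1 (0.02 with 1 surrogate variable, 0.18 with the slope), Sod2 (0.04 with quality weights, 0.06 with 1 surrogate variable, 0.10 with the slope, 0.03 without the 5 libraries of lowest slope), Cat (0.02 with the trend removed), Prdx3 (0.04 with the slope, 0.05 with the trend removed), and with the slope Gpx4 (0.07), Prdx2 (0.07) and Prdx5 (0.09). The cause was not tested. Over 37 alternatives Gpx1, Prdx1 and Prdx6 stayed negative. Gpx1 and Prdx1 lost the threshold in 5 each and Prdx6 in 21, and Gpx4 lost it or turned in 15. Many of the alternatives leave out a single mouse and so share most of their data. Calls for sex and interaction were 0 under each alternative run, and 0 to 9 members had an unadjusted p below 0.05 for sex, 9 without PBS mouse 103. In the level order 8 or 9 of 9 neighbours differed, but the neighbours were different pairs under each length, and Gpx4 and Prdx3 alone kept their places under all 3. Depth did not limit the members, which had at least 563 counts in each mouse.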
